A study of Mus musculus with 12 samples.

Results

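The genes described here are the 28 members of the sterol synthesis and SREBP pathway that the gene table of this mouse retina study holds, out of 53028 genes in all. They were chosen by symbol, from what the genes are known to do. They are 18 enzymes of the route from acetyl-CoA to cholesterol, 5 regulators of that route, 1 sterol carrier and 4 genes of fatty acid synthesis. Genes were kept for testing if 3 or more of the 12 libraries reached a CPM of 1, which held for 16486 genes and for all 28 members. Here CPM is the deposited level, in reads scaled to library size with TMM factors.

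Poly(A) RNA of whole retina was sequenced in 4 groups of 3 libraries: Pilrb1/2 -/- (knockout) and Pilrb1/2+/+ (wild type) mice at 12 months, and the same genotypes at postnatal day 28 (P28). Pilrb1 and Pilrb2 encode paired activating immunoglobulin-like receptors. The deletion was made by CRISPR editing in C57BL/6J zygotes and bred onto C57BL/6J, so it was not confined to a cell type or an age. The series text lists the neighbouring inhibitory receptor gene Pilra among the deleted genes while the sample labels name Pilrb1/2 alone. Neither says whether a library came from 1 animal or a pool, so p-values measure the spread between these libraries only.

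Cells make sterols by the mevalonate route: acetyl-CoA units are joined by HMG-CoA synthase, carried through mevalonate to farnesyl diphosphate, then to squalene and lanosterol, and trimmed to cholesterol. The genes of these steps are switched on together by SREBP transcription factors. SREBP precursors sit in the endoplasmic reticulum bound to SCAP, which carries them to the Golgi for cleavage when sterols are low, and INSIG proteins hold SCAP back when sterols are plentiful. SREBP2, made from Srebf2, acts mainly on sterol genes, and SREBP1, made from Srebf1, mainly on fatty acid genes. Retina makes cholesterol locally as well as taking it up from blood, and photoreceptors renew lipid-rich outer segment membranes throughout life.

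SREBPs act at sterol regulatory elements together with NF-Y and Sp1. Promoter windows of 300 bases, from 250 before to 50 after a gene's start, were found for 22 of the 28 members in the RefSeq table of GRCm38.p6. Fdps, Fdft1, Sqle, Stard4, Scd1 and Scd2 were not matched. Both strands were searched for the element core TCACNCCAC, the NF-Y box CCAAT and the Sp1 box GGGCGG. The element core was in the window of 1 of 22 members, Hmgcs1, against 1.44% of 27025 genes. The NF-Y box was in those of 20 members (90.9%), against 41.1% of all genes, and the Sp1 box in those of 20 members, against 38.2%. A match describes letters in the window and is not evidence of binding. The windows printed are that of Hmgcs1, the only member with the core, and those of Msmo1, Insig1 and Cyp51, the members with the smallest p at P28, which were added after their values were seen. They lie at chr13:119690101-119690400 on the plus strand (Hmgcs1), chr8:64733529-64733828 on the minus strand (Msmo1), chr5:28071162-28071461 on the plus strand (Insig1) and chr5:4104648-4104947 on the minus strand (Cyp51). Capitals mark the element core, at position 114 of the Hmgcs1 window, and every NF-Y box on either strand (CCAAT or ATTGG), and the Sp1 boxes, which overlapped none of these, are left in lower case.
Hmgcs1: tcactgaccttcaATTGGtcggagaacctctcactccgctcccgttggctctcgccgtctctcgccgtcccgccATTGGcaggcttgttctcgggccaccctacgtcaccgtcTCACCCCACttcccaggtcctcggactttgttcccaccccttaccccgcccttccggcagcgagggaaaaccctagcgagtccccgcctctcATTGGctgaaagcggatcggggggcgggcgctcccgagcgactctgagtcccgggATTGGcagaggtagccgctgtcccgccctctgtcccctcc
Msmo1: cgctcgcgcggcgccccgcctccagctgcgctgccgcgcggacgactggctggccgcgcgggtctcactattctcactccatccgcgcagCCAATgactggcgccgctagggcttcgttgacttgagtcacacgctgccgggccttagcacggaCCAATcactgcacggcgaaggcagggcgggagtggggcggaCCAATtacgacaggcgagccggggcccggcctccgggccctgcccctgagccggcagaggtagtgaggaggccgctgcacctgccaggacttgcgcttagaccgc
Insig1: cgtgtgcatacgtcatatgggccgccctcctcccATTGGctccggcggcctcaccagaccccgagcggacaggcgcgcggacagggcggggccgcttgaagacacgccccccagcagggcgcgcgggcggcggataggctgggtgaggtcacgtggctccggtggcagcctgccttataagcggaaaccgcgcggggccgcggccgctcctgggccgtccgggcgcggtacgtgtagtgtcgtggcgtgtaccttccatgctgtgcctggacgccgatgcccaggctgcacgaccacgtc
Cyp51: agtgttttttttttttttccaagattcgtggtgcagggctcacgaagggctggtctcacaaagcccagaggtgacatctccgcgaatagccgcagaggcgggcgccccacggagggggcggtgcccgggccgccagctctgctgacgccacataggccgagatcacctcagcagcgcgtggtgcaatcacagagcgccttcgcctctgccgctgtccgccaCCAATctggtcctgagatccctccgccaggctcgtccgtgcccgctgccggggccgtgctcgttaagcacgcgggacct
The windows of Hmgcs1 and Msmo1 held 4 and 3 NF-Y boxes, and those of Insig1 and Cyp51 held 1 each.

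Library depth, recovered from the step size of the values, ran from 14.7 to 25.9 M reads. A floor of 3 reads then lay at 0.111 to 0.192 CPM and covers counting error only. Pilrb1 and Pilrb2 each had a value above 0 in a single library, at 0.0520 and 0.0436 CPM, and so could not check the genotype labels. Pilra was above 0 in all 12 libraries. It was at 0.441, 1.16 and 0.819 CPM in P28 knockout, above the floor and above the 0.133 to 0.170 CPM of P28 wild type, and at 0.0556 to 0.309 CPM in 12-month knockout, against 0.159 to 0.268 CPM in 12-month wild type. It did not pass the filter and was not tested. Sex is not in the labels and was read from Xist, which was at 4478 to 6450 CPM in 4 libraries and at 16.3 CPM or less in the other 8. The 3 12-month knockout libraries were male, 12-month wild type held 1 male and 2 female libraries, P28 knockout 1 male and 2 female, and P28 wild type 3 male. The tissue label fitted the 10 rod markers, none of which was at 0. Their summed level was 23503 to 30652 CPM in 12-month knockout and 38063 to 45384 CPM in 12-month wild type. At P28 it was 23924 to 29776 CPM in knockout and 33965 to 45219 CPM in wild type. The 9 Müller glia markers summed to 3069 to 3144 CPM in 12-month knockout, below the 3195 to 3466 CPM of 12-month wild type, and overlapped at P28, at 2864 to 2990 CPM in knockout and 2939 to 3359 CPM in wild type. The 7 oligodendrocyte markers, which would mark myelin of the optic nerve, were likewise apart at 12 months, at a summed 41.1 to 45.7 CPM in knockout and 46.2 to 55.0 CPM in wild type, and overlapped at P28, at 36.4 to 45.2 CPM in knockout and 40.8 to 44.8 CPM in wild type. The 5 erythrocyte markers were lower in knockout at both ages, with sums of 4.33 to 9.94 CPM in knockout and 19.2 to 34.1 CPM in wild type at 12 months, and 12.6 to 23.6 CPM in knockout and 32.5 to 49.6 CPM in wild type at P28. The 6 adipocyte markers summed to 3.60 CPM or less in every library. Lens markers reached 4983 CPM in P28 knockout library 2, against 34.3 CPM in the lowest library of that group, and ran from 12.8 to 1780 CPM in P28 wild type. In 12-month knockout library 2, Srebf1, Scap and Fasn were lower than in every other library.

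Per length, the pathway genes differed widely in level. In P28 wild type the highest mean was that of Scd2, a stearoyl-CoA desaturase that makes monounsaturated fatty acids, at 77.1 ± 15.8 RPKM (SD, n = 3, also below; RPKM is reads per transcript kilobase, scaled to library size). Hmgcs1, the HMG-CoA synthase, stood at 65.1 ± 3.81 RPKM and Msmo1, which removes methyl groups from sterol intermediates, at 53.0 ± 5.14 RPKM. Insig1 was at 47.5 ± 2.43 RPKM and Acly, which makes cytosolic acetyl-CoA from citrate, at 44.9 ± 0.596 RPKM. The order of Scd2 and Hmgcs1, and that of Fdps (29.5 ± 5.29 RPKM) and Fdft1 (29.4 ± 2.26 RPKM), lay within their spread. At the other end were the mevalonate kinase gene Mvk, at 1.58 ± 0.248 RPKM, and the mevalonate diphosphate decarboxylase gene Mvd, at 1.06 ± 0.178 RPKM. Fasn, the fatty acid synthase, was also low at 2.96 ± 0.290 RPKM, and its partner desaturase Scd1, at 5.95 ± 1.90 RPKM, lay far below Scd2. Among the regulators, Insig1 and Insig2 (39.3 ± 2.44 RPKM) stood above Srebf2 (11.3 ± 0.635 RPKM), Scap (7.86 ± 0.831 RPKM) and Srebf1 (6.85 ± 0.156 RPKM). A gene's RPKM is the sum over its listed transcripts, noncoding forms included. In P28 wild type, coding Insig2-201 averaged 23.9 RPKM and the retained-intron form Insig2-206 averaged 10.5 RPKM. Coding Srebf1-201 and Srebf1-203 averaged 0.883 and 0.894 RPKM.

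**Figure D1:**
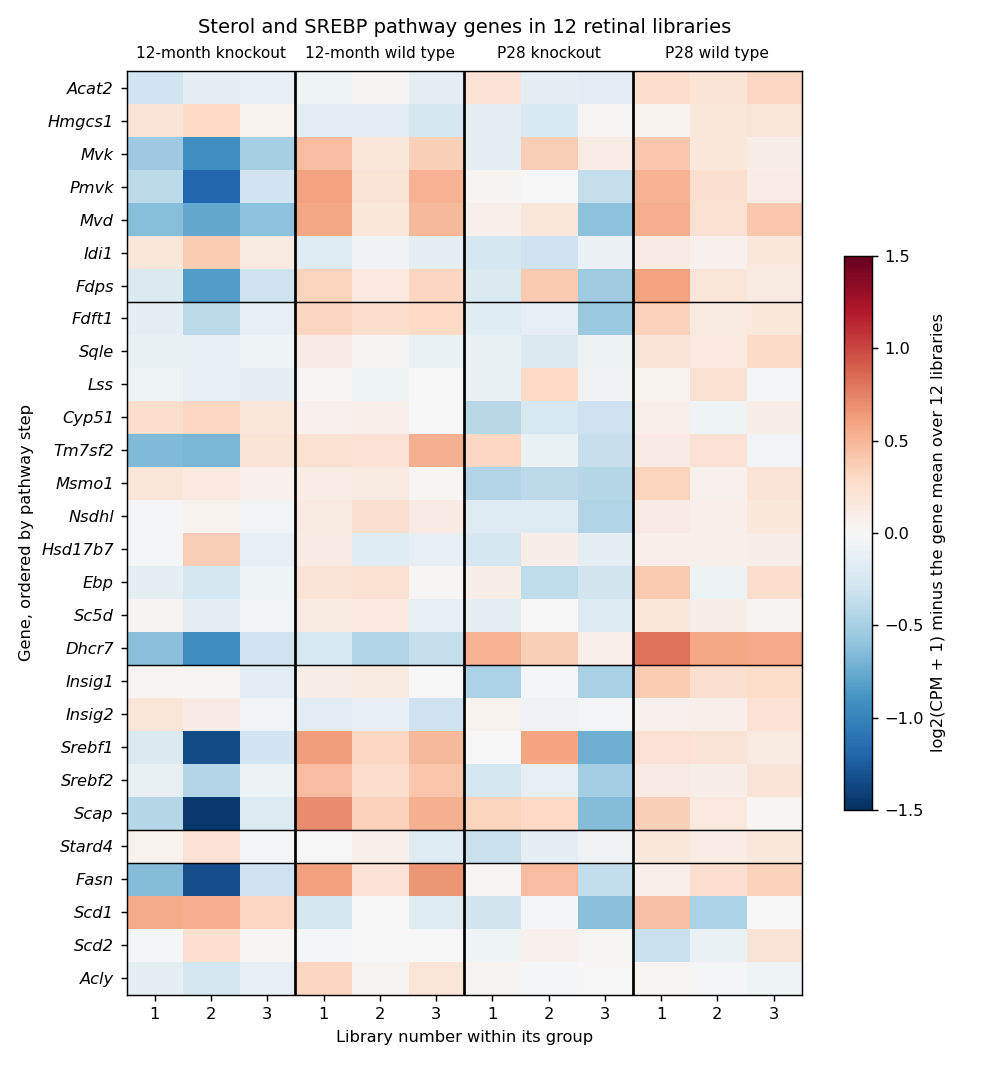
Each row is a pathway gene, in pathway order, and each column 1 of the 12 libraries; colour gives log2(CPM + 1) minus the gene's mean over the 12 libraries. In P28 knockout 26 of the 28 genes have a mean below that of P28 wild type, while in 12-month knockout the genes differ in direction.

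The first comparison asked whether loss of the receptors changed the pathway in young retinas, with 3 P28 knockout libraries set against 3 P28 wild-type libraries. The levels of 26 of the 28 genes were lower on average in P28 knockout, and all 18 enzymes from Acat2 to Dhcr7 were among them. The enzymes' levels summed to 734, 756 and 724 CPM in P28 knockout, against 949.8, 901 and 923 CPM in P28 wild type. Every knockout library lay below every wild-type library in that sum. The summed levels of Fasn, Scd1, Scd2 and Acly overlapped, at 623, 669 and 636 CPM in knockout and 567, 609 and 705 CPM in wild type. In bulk tissue, fewer cells of a type and less RNA per cell cannot be told apart.

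By limma, with p-values adjusted over all 16486 genes, 2 of the 28 genes fell, Msmo1 and Insig1, and 0 rose, where 1.49% of all genes passed in either direction and 0.491% fell. The median log2 fold change of the 28 was -0.31, against -0.01 over all genes tested. Libraries of the groups did not overlap for 15 of the 28, all lower in knockout, against 13.2% of all genes lower and 10.5% higher. Before adjustment 14 of the 28 had a p under 0.05, as did 3533 of the 16486 genes. Values below 0 made up 26 of 28 here and 52.3% over all genes.

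Msmo1 was at 59.6, 61.5 and 60.2 CPM in P28 knockout and 102.5, 84.7 and 93.5 CPM in P28 wild type. The knockout libraries lay within 2 CPM of each other and well below the lowest wild-type library. Msmo1 fell by 0.62 on the log2 scale (SE 0.08, limma adjusted p = 0.0134), to 0.646 times the wild-type mean. Insig1, which encodes the sterol-sensitive anchor of SCAP and is itself an SREBP target, was at 62.9, 86.4 and 62.3 CPM in P28 knockout and 115, 105 and 107 CPM in P28 wild type. Knockout library 2, the one with most lens RNA, was the highest of its group and still below all 3 wild-type libraries. Insig1 fell by 0.63 (SE 0.12, limma adjusted p = 0.0291). The main coding transcript, Insig1-201, moved alike, at 22.0, 26.7 and 20.8 RPKM in P28 knockout and 40.1, 34.9 and 40.8 RPKM in P28 wild type. The retained-intron form Insig1-202 overlapped between the groups, at 5.24, 8.45 and 6.03 RPKM in knockout and 9.51, 9.99 and 7.17 RPKM in wild type.

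The mevalonate and isoprenoid steps came to 0 of 7 past the threshold at P28, with a median log2 fold change of -0.33 and the libraries of 4 lying apart. Hmgcs1, which makes HMG-CoA, was at 169.6, 159 and 190.0 CPM in knockout and 194, 209 and 211 CPM in wild type (log2 fold change -0.25, limma adjusted p = 0.143). Idi1, the isomerase of isopentenyl diphosphate, was at 73.4, 71.0 and 82.7 CPM in knockout and 95.7, 91.99 and 98.5 CPM in wild type (log2 fold change -0.33, limma adjusted p = 0.0747). In both genes all 3 knockout libraries were below the lowest wild-type library. Pmvk, the phosphomevalonate kinase gene, averaged 8.34 ± 1.37 CPM in knockout and 11.3 ± 1.83 CPM in wild type (SD, n = 3 each). Mvd averaged 1.04 ± 0.548 CPM in knockout and 1.84 ± 0.306 CPM in wild type. For Acat2, which joins acetyl-CoA units, Mvk, and Fdps, which makes farnesyl diphosphate, the libraries overlapped, with log2 fold changes of -0.29, -0.11 and -0.42.

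Of the 11 genes from squalene to cholesterol, Msmo1 was the only one past the threshold, and the libraries of 7 lay apart, all lower in knockout. Their median log2 fold change was -0.34. Cyp51, the lanosterol demethylase gene, was at 55.1, 61.9 and 59.0 CPM in P28 knockout and 77.4, 70.1 and 78.6 CPM in P28 wild type (log2 fold change -0.36, limma adjusted p = 0.0522). Fdft1, the squalene synthase gene at the branch to sterols, was at 59.9, 62.5 and 46.1 CPM in knockout and 86.9, 75.3 and 76.5 CPM in wild type (log2 fold change -0.50, limma adjusted p = 0.0549). The highest knockout library of each was below the lowest wild-type library. Nsdhl, which works beside Msmo1 in removing sterol methyl groups, averaged 21.9 ± 2.33 CPM in knockout and 29.1 ± 0.789 CPM in wild type (SD, n = 3 each; limma adjusted p = 0.0577). Sqle, the squalene epoxidase gene, averaged 49.1 ± 2.48 CPM in knockout and 62.5 ± 3.13 CPM in wild type (limma adjusted p = 0.0616). The late-step genes Sc5d (log2 fold change -0.22) and Dhcr7 (log2 fold change -0.33), a desaturase and the last reductase, also had libraries apart. The libraries overlapped for the lanosterol synthase gene Lss (log2 fold change -0.04), the sterol reductase gene Tm7sf2 (-0.15), Hsd17b7, a partner of Nsdhl (-0.18), and the sterol isomerase gene Ebp (-0.37).

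Among the regulators, Insig1 was the 1 of 5 that passed. Srebf2, the gene of the main sterol-acting SREBP, was at 31.4, 34.8 and 26.2 CPM in P28 knockout and 41.2, 40.3 and 43.3 CPM in P28 wild type (log2 fold change -0.43, limma adjusted p = 0.0854). Its knockout libraries were all below the lowest wild-type library. Insig2 averaged 62.8 ± 2.66 CPM in knockout and 68.8 ± 4.37 CPM in wild type, with libraries apart by a small margin. Srebf1 and Scap overlapped, since their knockout libraries ranged from 5.21 to 14.6 CPM for Srebf1 and from 14.98 to 30.5 CPM for Scap. Stard4, a cytosolic sterol carrier, averaged 33.8 ± 3.38 CPM in knockout and 42.2 ± 0.741 CPM in wild type (SD, n = 3 each), with the libraries apart (limma adjusted p = 0.116). Of the 4 fatty acid genes none passed and none had libraries apart; limma adjusted p ran from 0.424 to 0.860.

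**Figure D2:**
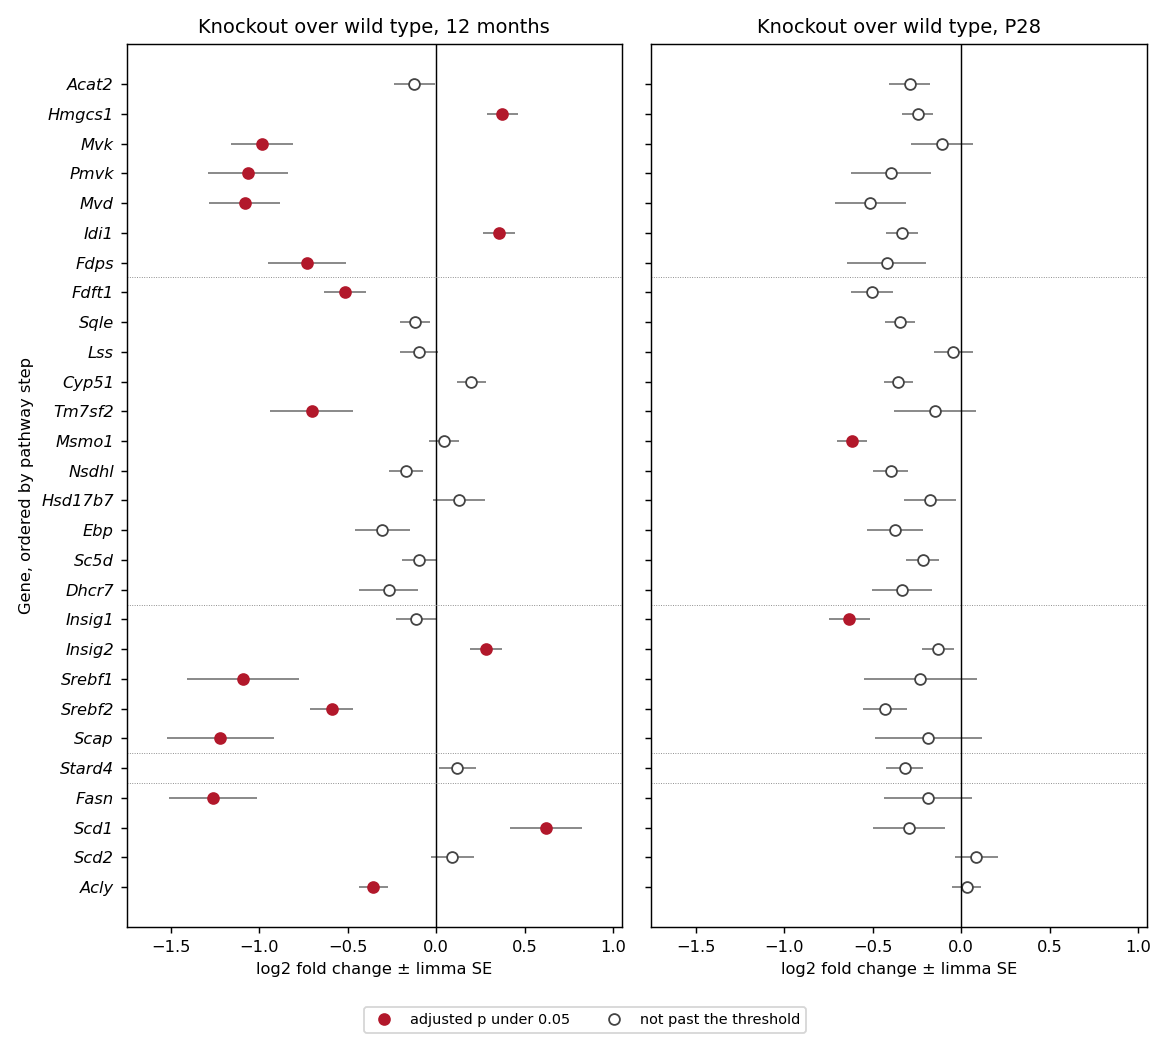
Points are log2 fold changes, knockout over wild type, with the limma standard error as bars, for each gene at 12 months (left) and P28 (right); filled points have a limma adjusted p under 0.05. At P28 26 of 28 points lie left of 0 and 2 are filled, and at 12 months 11 filled points lie left and 4 right of 0.

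The P28 calls depended on single libraries and on whether sex was in the fit. None of the 28 passed without knockout library 3, wild-type library 1 or wild-type library 3, where at most 3 of all genes rose and 4 fell. Without knockout library 2, the one with most lens RNA, 6 of the 28 passed, where 889 of the 16486 genes rose and 515 fell. With sex as a term in the fit 0 of 28 passed, where 0.00607% of all genes did, and the median log2 fold change was -0.29. Among male libraries alone, the 1 P28 knockout library was below all 3 P28 wild-type libraries for 21 of the 28 genes and above all of them for 2, against 31.0% and 31.9% of all genes. The part of the lower rod and erythrocyte marker levels in the P28 values was not tested.

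At 12 months the same comparison gave values in both directions. By limma 15 of the 28 genes passed, 4 higher and 11 lower in knockout, where 39.6% of all genes passed, 16.1% higher and 23.5% lower. The median log2 fold change was -0.15, against -0.03 over all genes. Libraries did not overlap for 5 genes higher and 14 lower in knockout, against 27.0% and 32.2% of all genes. The 18 enzymes' levels summed to 856, 859.6 and 824 CPM in 12-month knockout and 855.9, 846 and 809.6 CPM in 12-month wild type, so these sums overlapped. Among male libraries alone at this age, the 3 knockout libraries were below the 1 wild-type library for 14 of the 28 genes and above it for 7, against 41.5% and 36.8% of all genes. With a sex term 2 genes rose and 9 fell, where 11.4% of all genes rose and 18.7% fell. Rod, Müller glia, oligodendrocyte and erythrocyte markers were lower in 12-month knockout, and their part in these values was not tested.

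On the log2(CPM + 1) scale the largest falls at 12 months were in Fasn, Scap, Srebf1, Mvd and Pmvk. By the ratio of mean CPM, knockout over wild type, the lowest were Mvd (0.187) and Mvk (0.347), ahead of Fasn (0.413) and Scap (0.440). Fasn was at 14.05, 8.42 and 18.1 CPM in knockout and 35.2, 26.6 and 36.5 CPM in wild type, and fell by 1.26 on the log2 scale (SE 0.25, limma adjusted p = 0.00370). Scap, the gene of the SREBP escort, was at 17.7, 8.17 and 20.8 CPM in knockout and 40.2, 30.8 and 35.2 CPM in wild type, and fell by 1.22 (SE 0.30, limma adjusted p = 0.00881). In both genes knockout library 2 was the lowest of all, and the other 2 knockout libraries were also below the lowest wild-type library. Mvd was at 0.383, 0.262 and 0.407 CPM in knockout and 2.21, 1.40 and 2.02 CPM in wild type. Its log2(CPM + 1) value fell by 1.08 (SE 0.20, limma adjusted p = 0.00325), a scale that understates the change of so low a gene. Mvk averaged 1.07 ± 0.314 CPM in knockout and 3.07 ± 0.400 CPM in wild type, and fell by 0.99 (limma adjusted p = 0.00298). Pmvk averaged 5.72 ± 2.06 CPM in knockout and 12.6 ± 1.88 CPM in wild type, and fell by 1.06 (limma adjusted p = 0.00466). The 3 enzymes that take mevalonate to isopentenyl diphosphate were all lower in knockout at this age. Fdps, a step further on, fell by 0.73 (limma adjusted p = 0.0212). With GC content and length trends removed, as described below, Pmvk alone among these genes still passed.

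Both SREBP genes fell at 12 months. Srebf2 was at 34.9, 27.6 and 35.7 CPM in knockout and 52.5, 45.7 and 50.7 CPM in wild type, a fall of 0.59 (SE 0.12, limma adjusted p = 0.00439). Srebf1 was at 7.91, 3.07 and 7.44 CPM in knockout and 14.9, 11.8 and 13.5 CPM in wild type, a fall of 1.09 (SE 0.32, limma adjusted p = 0.0175). Neither gene overlapped between the groups. Of the 12 Srebf1 transcripts listed, 5 had a mean of at least 0.5 RPKM. The one with most signal, the noncoding Srebf1-210, averaged 1.42 ± 0.668 RPKM in knockout and 3.86 ± 0.552 RPKM in wild type (SD, n = 3 each). Coding Srebf1-203 averaged 0.762 ± 0.395 RPKM in knockout and 1.74 ± 0.487 RPKM in wild type, and coding Srebf1-201 was listed at 0 in 2 of the 3 knockout libraries. Fdft1 was at 61.8, 51.3 and 62.6 CPM in knockout and 85.5, 82.0 and 84.1 CPM in wild type, and fell by 0.52 (SE 0.12, limma adjusted p = 0.00647). Acly averaged 143 ± 7.19 CPM in knockout and 184 ± 18.2 CPM in wild type (SD, n = 3 each), a fall of 0.36 (limma adjusted p = 0.00686). Tm7sf2 fell by 0.70 (limma adjusted p = 0.0299), with knockout library 3, at 11.2 CPM, level with the lowest wild-type library.

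The 4 genes that rose at 12 months were Scd1, Hmgcs1, Idi1 and Insig2. Scd1 was at 40.8, 40.6 and 34.5 CPM in knockout and 22.8, 27.3 and 24.05 CPM in wild type, a log2 fold change of 0.62 (SE 0.20, limma adjusted p = 0.0284). Hmgcs1 was at 213, 230.4 and 194 CPM in knockout and 167, 167 and 157 CPM in wild type, a log2 fold change of 0.37 (SE 0.09, limma adjusted p = 0.00755). Idi1 was at 99.3, 114 and 97.0 CPM in knockout and 76.9, 84.9 and 80.4 CPM in wild type, a log2 fold change of 0.35 (SE 0.09, limma adjusted p = 0.00983). In each of the 3 the lowest knockout library was above the highest wild-type library. Insig2 averaged 67.4 ± 5.18 CPM in knockout and 55.2 ± 3.85 CPM in wild type (SD, n = 3 each), a log2 fold change of 0.28 (limma adjusted p = 0.0253). Its main coding form Insig2-201 was at 22.9 ± 1.32 RPKM in knockout and 19.3 ± 1.67 RPKM in wild type. Scd1-201, the only Scd1 transcript above 0.5 RPKM, was at 8.12 ± 0.856 RPKM in knockout and 5.05 ± 0.517 RPKM in wild type. Scd2, the desaturase with the higher level, averaged 457 ± 49.1 CPM in knockout and 427 ± 4.69 CPM in wild type, and its libraries overlapped. Msmo1 and Insig1, which fell at P28, had log2 fold changes of 0.04 and -0.11 at 12 months (limma adjusted p = 0.716 and 0.458).

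**Figure D3:**
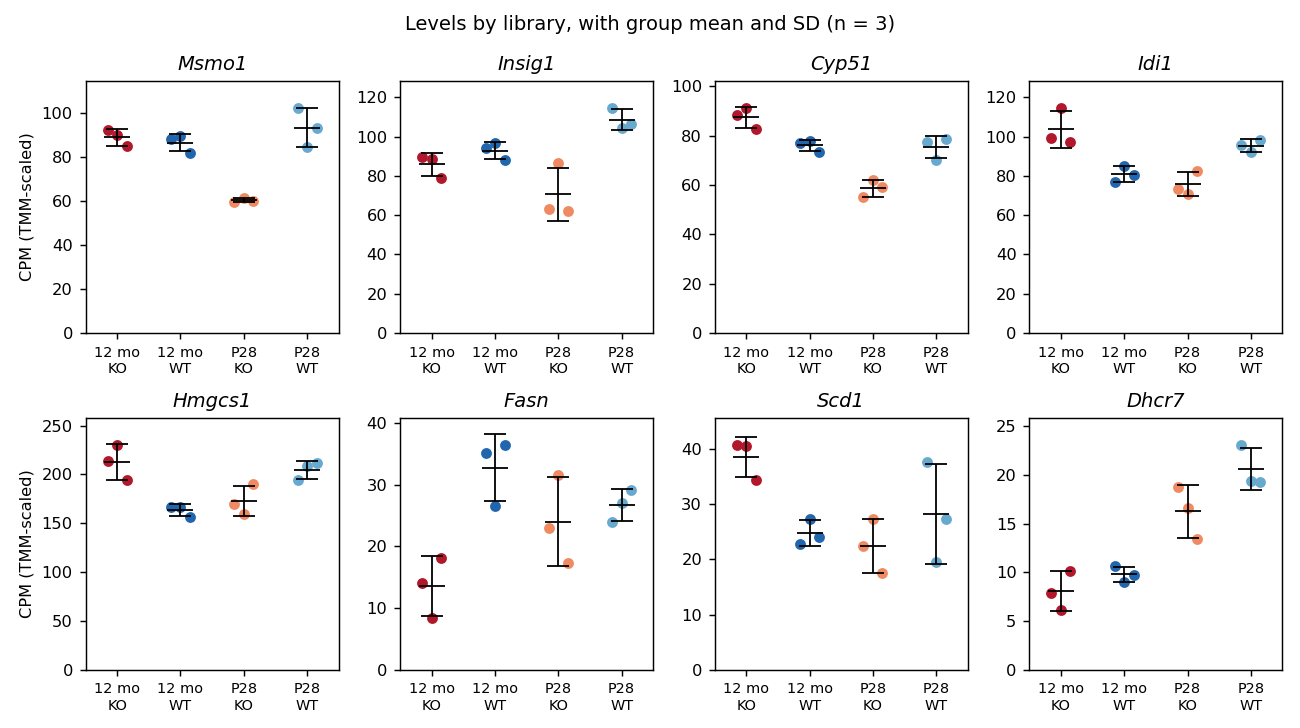
Points are the CPM of each library for 8 of the genes, with the group mean and SD (n = 3) as bars. Msmo1 and Insig1 are lowest in P28 knockout, Fasn in 12-month knockout, and Dhcr7 is lower in both 12-month groups than in the P28 groups.

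Direction at 12 months followed the base composition of the transcripts. Mean GC content of the members' transcripts ran from 41.8% in Idi1 to 59.3% in Mvd, with a median of 49.4%. Of the 14 members above the median, 11 fell and 0 rose at 12 months, and of the other 14, 4 rose and 0 fell. Across the 28 members the Spearman correlation of the 12-month log2 fold change with GC content was -0.90, and across all 16274 genes with a known GC content it was -0.79, given as descriptions since genes in the same libraries are not independent. At P28 it was 0.02 across the members and -0.35 across all genes. Spearman correlations with transcript length were 0.42 (members) and 0.23 (all genes) at 12 months and 0.37 and 0.41 at P28.

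**Figure D4:**
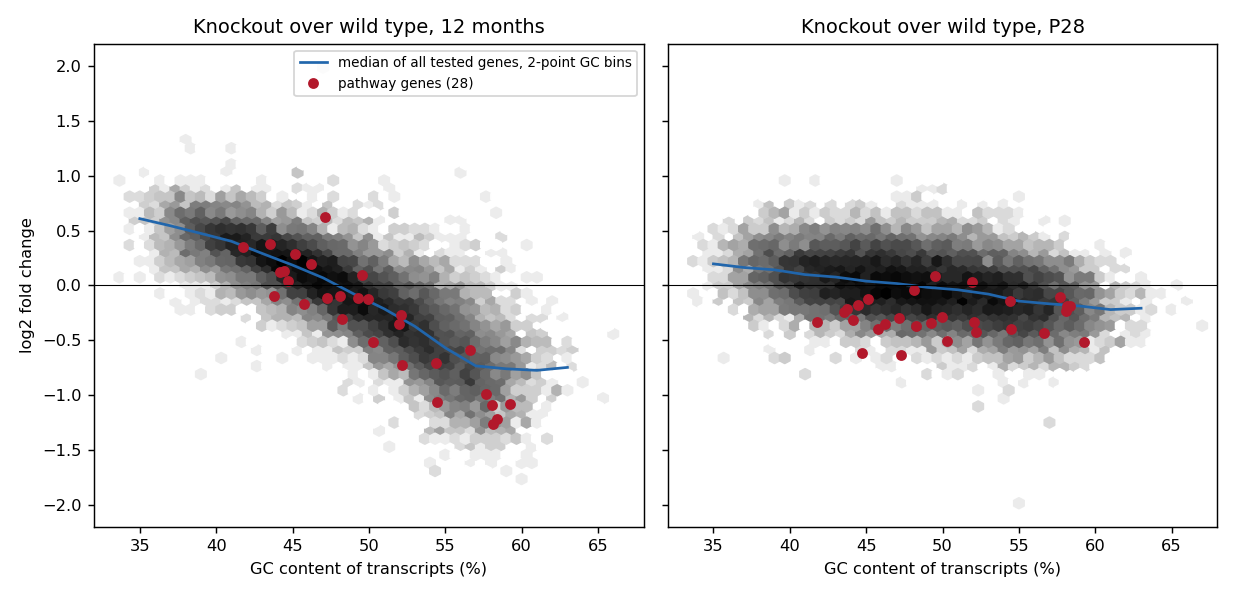
Log2 fold change, knockout over wild type, is plotted against the mean GC content of a gene's transcripts at 12 months (left) and P28 (right); grey shading gives the density of all tested genes, the line their median in bins of 2 percentage points, and red points the 28 pathway genes. At 12 months the red points follow the line downward (Spearman -0.90), and at P28 most lie below it at every GC content (Spearman 0.02).

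When smooth trends with GC content and length were removed from each library before the fit, the 12-month calls changed more than those at P28. At 12 months 5 of the 28 genes then fell and 0 rose, where 6.99% of all genes passed and 5.43% fell, and 3 of the earlier 15 calls were among them. Those that fell were Fasn (log2 fold change -0.72, limma adjusted p = 0.0290), Pmvk (-0.58, 0.0455), Fdft1 (-0.48, 0.0297), Nsdhl (-0.38, 0.0441) and Sc5d (-0.46, 0.0455). The other calls did not pass: Hmgcs1 had a log2 fold change of 0.01, Idi1 of -0.09, Scd1 of 0.44, Srebf2 of -0.06, Srebf1 of -0.44 and Scap of -0.62. Mvd was then at -0.42 (limma adjusted p = 0.0967), Mvk at -0.36 (0.136) and Fdps at -0.46 (0.127). Tm7sf2 was at -0.24, Acly at -0.20 and Insig2 at 0.05. At P28 8 genes then fell and 0 rose, where 1.28% of all genes passed and 0.737% fell. They were Msmo1 (-0.62, limma adjusted p = 0.0107), Idi1 (-0.43, 0.0185), Cyp51 (-0.45, 0.0232), Hmgcs1 (-0.34, 0.0232), Stard4 (-0.48, 0.0330), Insig1 (-0.64, 0.0330), Srebf2 (-0.36, 0.0360) and Sqle (-0.36, 0.0476). The median of the 28 was -0.31 at P28 and -0.24 at 12 months after removal, against -0.02 and -0.09 over all genes. Of the 28 values 25 and 24 were below 0. With a sex term added to the trend removal 0 of 28 passed at either age. Of all genes 0 then rose and 1 fell at P28, and 9 rose and 20 fell at 12 months.

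**Figure D5:**
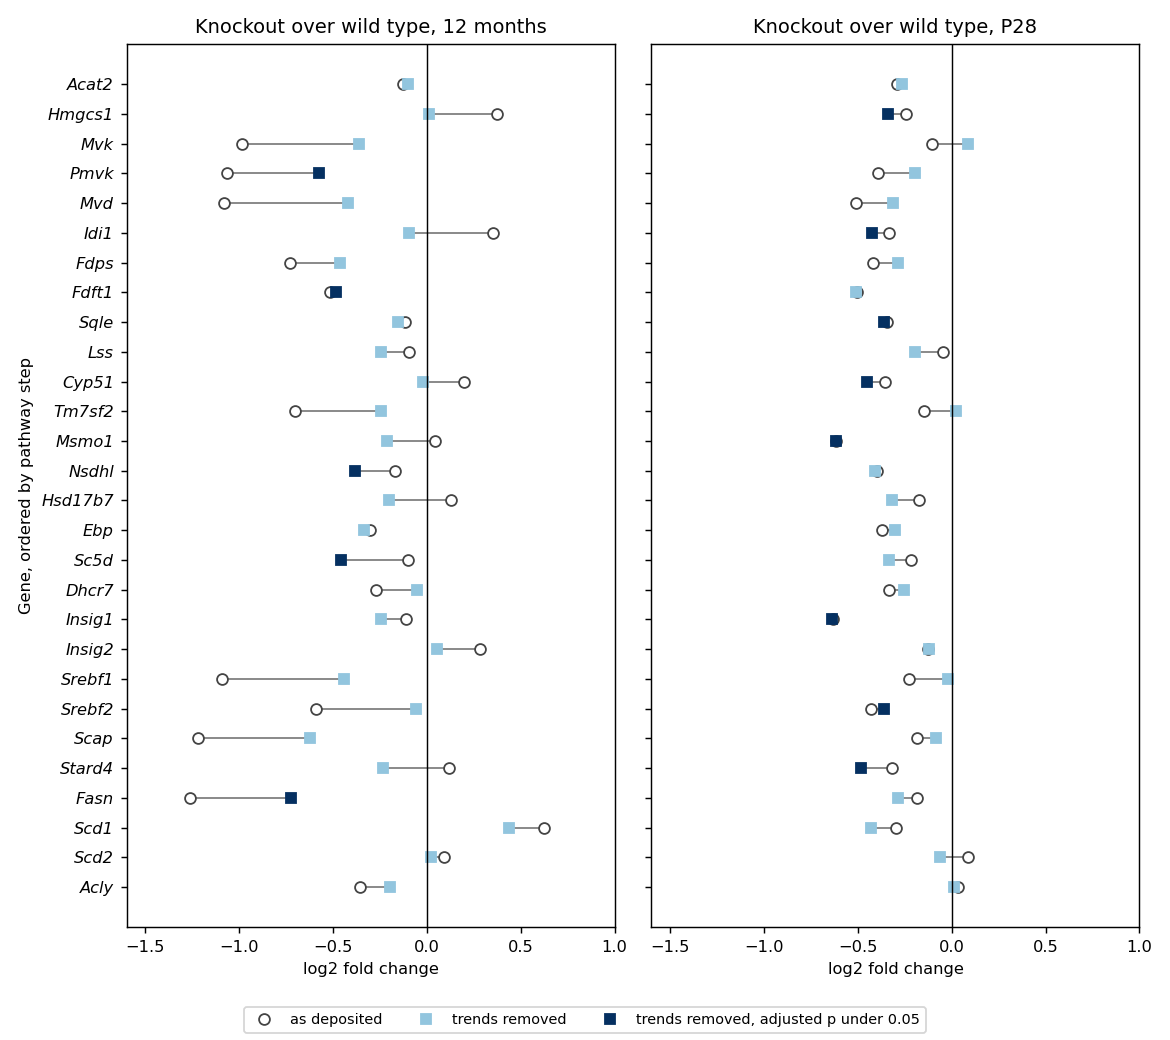
Open circles are log2 fold changes, knockout over wild type, from the deposited levels, and squares those after GC content and length trends were removed from each library, dark where the limma adjusted p was under 0.05. At 12 months (left) most squares lie nearer 0 than their circles, and 5 are dark. At P28 (right) 8 are dark, and gaps reach those of Mvd (-0.51 to -0.31) and Srebf1 (-0.23 to -0.02). Mvk, Tm7sf2 and Scd2 change sign at P28.

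To ask whether the effect of genotype differed between the ages, the 12-month effect was compared with the P28 effect in the same limma fit. None of the 28 genes passed, where 0.176% of all genes did; 12 had an unadjusted p under 0.05, as did 4397 of all genes. The smallest adjusted p were those of Msmo1, whose effect was 0.66 higher at 12 months than at P28 on the log2 scale (SE 0.12, limma adjusted p = 0.0519), and Idi1 (difference 0.69, SE 0.13, limma adjusted p = 0.0520). The largest differences in size on this scale were those of Fasn, at -1.08 (SE 0.35, limma adjusted p = 0.0973), and Scap, at -1.04 (SE 0.43, limma adjusted p = 0.152). The sign followed GC content here too: 13 of the 14 genes at or below the median had a difference above 0, and 11 of the 14 above the median had one below 0. For 4 members the libraries lay apart in opposite directions, higher in knockout at 12 months and lower in knockout at P28, and for 0 the other way round, against 1.21% and 0.910% of all genes. The balance of sexes between the genotypes was also reversed between the ages. With a sex term 0 of the 28 members and 0 of all genes passed for the difference. How much of the difference went with sex was not tested. The count of members past the threshold was 9 without P28 knockout library 3, where 1215 of the 16486 genes passed higher and 1286 lower. It was 5 without P28 knockout library 2 (125 and 110 of all genes) or 12-month knockout library 3 (292 and 510).

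Between 12 months and P28 in wild type, 1 of the 28 genes changed. Dhcr7, which reduces the last double bond on the way to cholesterol, was at 10.6, 9.02 and 9.70 CPM at 12 months and 23.1, 19.4 and 19.3 CPM at P28. The 12-month levels were all below the lowest P28 level, and Dhcr7 fell by 1.0 on the log2 scale (SE 0.17, limma adjusted p = 0.00365). Over all genes 5.40% passed, 3.65% higher and 1.75% lower at 12 months. Libraries did not overlap for 3 members higher and 8 lower, against 18.9% and 16.0% of all genes. The nearest to the threshold was Hmgcs1, with 163 ± 5.84 CPM at 12 months and 205 ± 9.22 CPM at P28 (SD, n = 3 each; limma adjusted p = 0.0558). With the trends removed 2 of 28 fell, where 7.31% of all genes passed: Dhcr7 and Hmgcs1 (log2 fold change -0.28, limma adjusted p = 0.0126). Scap had the second largest change on the log2 scale, 0.35, with overlapping libraries (SE 0.30, limma adjusted p = 0.570). The 12-month and P28 wild-type libraries also differed in sex, and with a sex term Dhcr7 had a log2 fold change of -0.90 and a limma adjusted p of 0.0509.

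In knockout retinas 5 genes rose and 3 fell at 12 months relative to P28, where 27.2% of all genes passed, 13.3% higher and 13.9% lower. Libraries did not overlap for 7 members higher and 4 lower at 12 months, where 36.0% of all genes did not overlap in either direction. Cyp51 was at 88.4, 91.2 and 82.6 CPM at 12 months and 55.1, 61.9 and 59.0 CPM at P28, a log2 fold change of 0.57 (SE 0.08, limma adjusted p = 0.000620). Msmo1 was at 92.6, 90.1 and 85.0 CPM at 12 months and 59.6, 61.5 and 60.2 CPM at P28, a log2 fold change of 0.55 (SE 0.08, limma adjusted p = 0.000903). In both genes the P28 knockout libraries were the lowest of the study, and in wild type the corresponding log2 fold changes were 0.01 and -0.11. The other rises were those of Scd1 (log2 fold change 0.78, limma adjusted p = 0.0150), Idi1 (0.45, 0.00424) and Hmgcs1 (0.30, 0.0280). Dhcr7 fell here too, to 7.91, 6.16 and 10.2 CPM at 12 months, against 18.8, 16.6 and 13.4 CPM at P28 (log2 fold change -0.94, limma adjusted p = 0.00242). Mvk fell by 0.77 (limma adjusted p = 0.00793) and Fasn by 0.80 (limma adjusted p = 0.0312), with overlapping libraries in Fasn. With trends removed 4 rose (Srebf2, Cyp51, Msmo1 and Scd1) and 2 fell (Dhcr7 and Mvk), where 9.03% of all genes rose and 12.1% fell. The comparisons share libraries, so the values of 1 gene across them are not independent.

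Other genes of the pathway were read from a list of 34, of which 32 passed the filter. At P28 1 of them fell in knockout and 0 rose, where 0.491% of all genes fell. This was Coq2, which attaches the isoprenoid tail in coenzyme Q synthesis, at 31.5, 33.7 and 31.7 CPM in knockout and 48.8, 45.7 and 39.8 CPM in wild type (log2 fold change -0.46, SE 0.10, limma adjusted p = 0.0475). The 9 genes of SREBP processing and sterol-dependent degradation had 0 calls and a median log2 fold change of -0.10 at P28. At 12 months 5 of the 32 rose and 9 fell in knockout, where 16.1% of all genes rose and 23.5% fell, so the share called, 14 of 32, was near that of all genes (39.6%). The smallest p were those of Slc25a1, the mitochondrial citrate carrier gene (log2 fold change -1.03, limma adjusted p = 0.00256), Cyp27a1, a sterol hydroxylase gene (-0.90, 0.00337), Pdss1, which makes the coenzyme Q tail (0.53, 0.00531), and the fatty acid desaturase gene Fads2 (-0.74, 0.00532). Between 12 months and P28 in wild type, 4 rose and 0 fell, where 5.40% of all genes passed and 3.65% rose. They were Cyp27a1 (log2 fold change 1.06, limma adjusted p = 0.00234), Npc1, which exports cholesterol from lysosomes (0.59, 0.00232), Me1, which supplies NADPH (0.35, 0.0254), and Erlin1, which takes part in sterol-dependent degradation (0.35, 0.0411). In knockout 6 rose and 6 fell, where 27.2% of all genes passed, 13.3% higher and 13.9% lower, and the 4 with the smallest p were Me1 (log2 fold change 0.69), Npc1 (0.75), Erlin1 (0.53) and Pdss1 (0.67), with limma adjusted p from 0.000148 to 0.00205.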

How the data were processed

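Per the labels' protocols, RNA was isolated on RNeasy columns and stranded poly(A) libraries were read as 125-base pairs. The authors, per the submitters' processing notes, ran kallisto 0.45.0 on Ensembl 102, summed transcripts to genes with tximport 1.30.0 and made TMM-normalized CPM with edgeR 4.0.3. The notes name the human GRCh38.p7, but 51903 of the 53028 gene identifiers were found in the mouse GRCm38 annotation, including all 28 members. For genes the authors deposited a signal, CPM on a TMM scale with column sums of 0.930 to 1.10 M. The authors also deposited transcript RPKM values; how these were made is not given in the sources used here. Neither table holds counts, and only 10.0 to 25.9% of low values were whole reads to within 0.01, so no count model was used.

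log2(CPM + 1) was fitted with limma 3.58.1 in R 4.3.3, with 4 group means over 12 libraries, eBayes with a trend and Benjamini-Hochberg adjustment over all 16486 genes at 0.05. Fold changes on this scale understate those of genes near 1 CPM. GC content and length are means over GENCODE M21 transcripts, weighted by their RPKM, and trends were splines of 5 degrees of freedom in 98.7% of tested genes. The trend removal combined with a sex term was added after seeing the data. Only the limma fit was tested on simulated data, in the P28 comparison of the genotypes and with residuals independent between genes. The members and lists were chosen with earlier results of these data known. All members were named; full statistics went to the members that passed (at most 8 a contrast by smallest p) and the 2 with the largest change, and some others were named after their values were seen. Python 3.11.15 and matplotlib 3.10.9 made the tables and figures.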

Additional observations from a re-analysis of the deposited data

Results flagged for a closer look

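For Hmgcs1, Idi1, Cyp51 and Insig2, 4 of the 28 members against 1.21% of all genes, the libraries of the genotypes lay apart in opposite directions at the 2 ages, with every knockout library above every wild-type library at 12 months and below every one at P28. The difference between the 12-month and the P28 log2 fold change was 0.62 for Hmgcs1 (limma adjusted p = 0.0624), 0.69 for Idi1 (0.0520), 0.55 for Cyp51 (0.0624) and 0.41 for Insig2 (0.0912). None of these differences passed the threshold of 0.05. The sexes were reversed between the ages as well. P28 knockout held 1 male and 2 female libraries against 3 male in wild type. The 12-month knockout held 3 male libraries against 1 male and 2 female in wild type. With a sex term 0 of the 28 members and 0 of all genes passed for the difference, and the part of sex in these 4 genes was not tested. With GC content and length trends removed, the 12-month log2 fold changes of the 4 genes in that order were 0.01, -0.09, -0.02 and 0.05, so none was then clearly higher in knockout at that age (limma adjusted p from 0.360 to 0.912). The P28 values were then -0.34, -0.43, -0.45 and -0.12. The differences between the ages were 0.35, 0.33, 0.43 and 0.18, with limma adjusted p of 0.121, 0.135, 0.125 and 0.458.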

How the results depend on the processing

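The number of members that passed was 2 in the P28 comparison of the genotypes, 15 in that at 12 months, 0 for the difference between the ages, 1 for 12 months against P28 in wild type and 8 in knockout. At P28 it was 6 with a filter of a mean CPM of at least 5, where 249 of all genes rose and 130 fell. Quantile normalization gave 7 (176 and 141 of all genes) and summed transcript RPKM 5 (113 and 207). With GC content and length trends removed it was 8 (88 and 120), and with array weights 11 (1292 and 1090). It was 0 with a sex term, with the trends removed and a sex term, or with only the 2 groups compared. In these 3 settings at most 1 of all genes passed. At 12 months it was 11 with a sex term, 2 higher and 9 lower in place of 4 and 11, 5 with the trends removed and 0 with these and a sex term. Of all genes 1882 rose and 3079 fell with a sex term, 253 and 884 with the trends removed, and 9 and 20 with both. For the difference it was 1 with a pseudocount of 5 (15 of all genes higher and 18 lower) or median-of-ratios rescaling (18 and 14). It was 2 with the mean CPM filter (25 and 18) and 15 with array weights (2318 and 2916). In wild type over age it was 3 with quantile normalization (576 of all genes higher and 380 lower) and 0 with a sex term (258 and 103). It was 2 with the trends removed (802 and 388), and 5 with array weights (1637 and 1247) or only the 2 groups compared (1351 and 942). In knockout over age it was 5 with a sex term (1490 of all genes higher and 1575 lower) or only the 2 groups compared (836 and 733). It was 4 with the trends removed and a sex term (766 and 1131), and 17 with array weights (3917 and 4399). The cause of these shifts was not tested. Leaving out 1 library at a time gave 0 to 6 at P28, 10 to 16 at 12 months, 0 to 9 for the difference, 1 to 3 in wild type over age and 5 to 12 in knockout over age. In the refits with the most members called, 889 of all genes rose and 515 fell at P28, and 3413 and 4348 at 12 months. For the difference these were 1215 and 1286, in wild type over age 958 and 693, and in knockout over age 2680 and 2859. The median log2 fold change stayed between -0.35 and -0.22 at P28 and between -0.24 and -0.12 at 12 months over all 25 alternatives each. The 29 single-member results were every member that passed in a comparison and the 2 with the largest change in each. Of their 720 refits 615 kept direction and side of the threshold, 98 no longer passed, 5 newly passed and 2 changed direction. Both of these were Idi1 at 12 months, at -0.093 with the trends removed and -0.11 with these and a sex term. With the replicate number as a block the counts were 2, 15, 0, 1 and 6 in the order given above. Same-numbered P28 libraries of the 2 genotypes had correlations of 0.09, -0.11 and 0.05 between their deviations from the group means. Differently numbered P28 libraries ran from -0.14 to 0.11. At 12 months same-numbered libraries had 0.10, 0.31 and 0.16, and differently numbered ones ran from -0.31 to 0.13. Deviations within a group sum to 0, so these correlations are not independent. Whether the numbers pair the samples cannot be told from them.
Precision is limited by 3 libraries a group and by depth for genes near 1 CPM, such as Mvd and Mvk.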
